A study of Mus musculus with 6 samples.

Results

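The fatty acid oxidation and carnitine shuttle genes described here are 38 genes, set among 22180 genes that the arrays measured in CD4+ T cells from mouse spleens. They encode the enzymes that activate fatty acids, carry them into mitochondria and shorten them there, together with peroxisomal enzymes of the same chemistry, the PPAR regulators and a pair of lipid handling genes. A gene counted as measured where the array platform's annotation gave it a probe set of its own, and of several such probe sets the one chosen by the highest mean level over the 6 arrays was used. By this rule 35 of the 38 were measured. Cpt1b and Acsl3 have probe sets that the annotation gives to several genes, and Acsl1 is not among the named probe sets used here. Cpt1a and Slc25a20 were selected on their higher level in PlGFCM, so their values are a description with no test, and the other 33 measured genes were tested.

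The cells were isolated with magnetic beads, cultured in RPMI with 10% serum and stimulated for 12 hours with anti-CD3 and anti-CD28 antibodies at 1 µg/ml, the same in every group. The ConCM group received control conditioned medium. The PlGFCM group received medium of HEK-293 clones, a human embryonic kidney line, that overexpress PlGF2, a form of placental growth factor, and this medium holds whatever else these clones secrete. The IL6_ConCM group received the control medium with IL-6 at 20 ng/ml. Each group had 2 arrays, 6 in all. Strain, age, sex and number of mice were not stated. Whether replicates were separate animals or cultures was not stated either, so the p-values reflect only how these samples vary among themselves, and part of that may be technical.

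Long-chain fatty acids enter oxidation as acyl-CoA, made by acyl-CoA synthetases. Cpt1a on the outer mitochondrial membrane, the step at which malonyl-CoA holds the pathway back, swaps CoA for carnitine, Slc25a20 carries the acylcarnitine across the inner membrane, and Cpt2 restores the acyl-CoA inside. Acyl-CoA dehydrogenases, hydratases, hydroxyacyl-CoA dehydrogenases and thiolases then remove acetyl units, and the electrons pass through the electron transfer flavoprotein to the respiratory chain. Freshly activated T cells rely largely on glycolysis and glutamine, whereas memory and regulatory T cells are known for greater use of fatty acid oxidation. Many of these genes are classical targets of the PPAR nuclear receptors.

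The arrays had nearly the same distribution, with medians of 5.47 to 5.51 on the log2 scale. Of the markers of CD4 T cells, 9 of 11 were measured, with mean levels per gene of 9.33 to 12.01, and 8 of the 9 were higher in PlGFCM than in ConCM, none of them called. One array stood apart: Xist, transcribed from the inactive X chromosome, reached 8.38 (log2) on PlGFCM replicate 2, and the 5 other arrays ranged from 3.58 to 3.95. The Y-linked genes of the same table were read on that array as well, Uty at 7.50, Kdm5d at 7.07 and Eif2s3y at 8.59, and the other arrays had 7.77 to 8.14, 7.42 to 7.77 and 8.90 to 9.14. Without that array, the PlGFCM difference from ConCM kept its sign and stayed within 1.5 times for 11 of the 33 tested genes, moved by more for 16 and turned sign for 6. With 2 arrays a group, leaving out either PlGFCM replicate moves a difference equally far, in opposite directions. The counts therefore do not mark that array as the odd one for these genes. Several differences that moved by more were near 0 with all arrays, such as Acad9 (-0.001), Etfa (0.007) and Ehhadh (0.0085). Of the genes given by array below, those whose difference moved by more or turned are given without PlGFCM replicate 2 too. These are bulk samples, in which fewer cells of a type and less RNA per cell cannot be told apart.

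Within the carnitine shuttle, Cpt1a and Slc25a20 stood high in PlGFCM. With IL-6, Slc25a20 overlapped ConCM and Cpt1a lay slightly above it, and none of the other 4 measured genes of the shuttle and its transport passed the test. The log2 level of Cpt1a was 6.970 and 6.998 on the ConCM arrays, 7.97 and 8.04 on the PlGFCM arrays and 7.13 and 7.05 on the IL6_ConCM arrays. Both PlGFCM arrays thus lay above all 4 other arrays, and both IL6_ConCM arrays lay above both ConCM arrays by a much smaller step. The means were 6.98 ± 0.02 (SD, n = 2) in ConCM, 8.01 ± 0.05 in PlGFCM and 7.09 ± 0.06 in IL6_ConCM, which puts PlGFCM 1.02 log2 units above ConCM, or 2.03-fold, and IL6_ConCM 0.11 above ConCM. Slc25a20 was at a log2 level of 7.80 and 7.82 under ConCM, 8.34 and 8.25 under PlGFCM and 7.81 and 7.78 under IL6_ConCM. Its PlGFCM arrays again lay above the 4 others, while the ConCM and IL6_ConCM arrays overlapped. Its mean was 7.81 ± 0.01 (SD, n = 2) in ConCM, 8.29 ± 0.06 in PlGFCM and 7.80 ± 0.02 in IL6_ConCM, so that PlGFCM was 0.48 log2 units above ConCM, or 1.39-fold, and IL6_ConCM was at -0.02 from ConCM. Against IL6_ConCM, the PlGFCM means were 0.92 higher for Cpt1a and 0.50 higher for Slc25a20. Without PlGFCM replicate 2 the differences from ConCM were 0.99 for Cpt1a and 0.52 for Slc25a20.

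**Figure D1:**
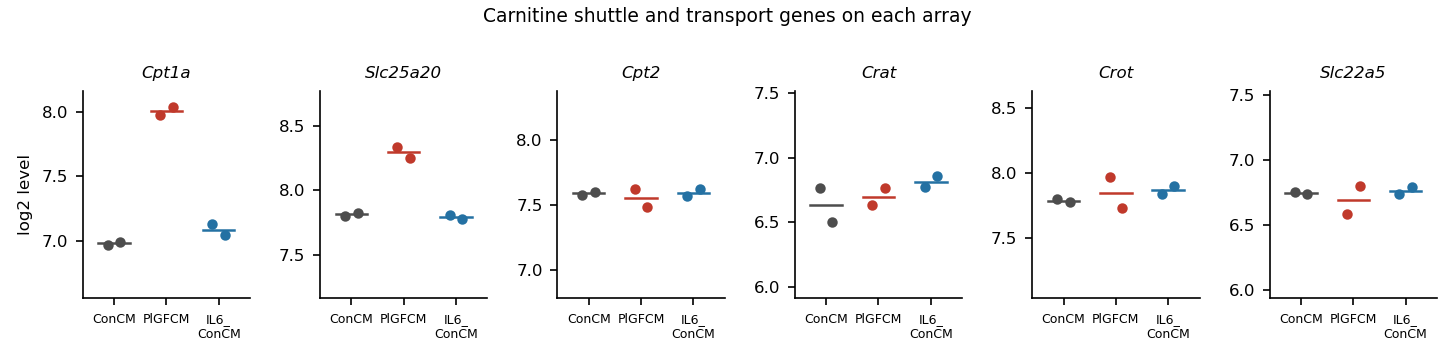
Log2 level (y axis) of 6 carnitine shuttle and transport genes on each array, by group (x axis: ConCM, PlGFCM and IL6_ConCM, 2 arrays each). Points are arrays, bars are group means, and every panel spans 1.6 log2 units. Cpt1a and Slc25a20 are separated in PlGFCM, at 7.97 to 8.04 and 8.25 to 8.34, and the PlGFCM arrays of the other 4 genes overlap those of ConCM.

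The promoters of both genes are shown with that of Cpt2, the partner enzyme on the inner membrane, because the first pair differed between the media while Cpt2 did not differ detectably. They come from RefSeq on build GRCm38.p6, with 250 bases before the start of the gene and 50 from the start on, written 5′ to 3′ on the strand of the gene. Capitals mark AGGTCA, the core hexamer that PPARs and other nuclear receptors bind, and GGGCGG, the GC box, each on either strand and with no overlap between them.
Cpt1a, chr19:3323051-3323350, plus strand: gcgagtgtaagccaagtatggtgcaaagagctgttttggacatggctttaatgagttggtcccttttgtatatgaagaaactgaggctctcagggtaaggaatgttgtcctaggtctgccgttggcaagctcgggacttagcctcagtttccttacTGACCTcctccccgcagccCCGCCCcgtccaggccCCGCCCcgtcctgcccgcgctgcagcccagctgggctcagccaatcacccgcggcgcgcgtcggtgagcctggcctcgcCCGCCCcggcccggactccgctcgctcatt
Slc25a20, chr9:108661886-108662185, plus strand: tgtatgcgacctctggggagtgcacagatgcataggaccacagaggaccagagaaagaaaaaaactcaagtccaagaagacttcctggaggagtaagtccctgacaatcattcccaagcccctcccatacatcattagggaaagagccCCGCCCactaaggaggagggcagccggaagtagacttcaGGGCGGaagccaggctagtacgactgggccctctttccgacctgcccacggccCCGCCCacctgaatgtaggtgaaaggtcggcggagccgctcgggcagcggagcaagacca
Cpt2, chr4:107923540-107923839, minus strand: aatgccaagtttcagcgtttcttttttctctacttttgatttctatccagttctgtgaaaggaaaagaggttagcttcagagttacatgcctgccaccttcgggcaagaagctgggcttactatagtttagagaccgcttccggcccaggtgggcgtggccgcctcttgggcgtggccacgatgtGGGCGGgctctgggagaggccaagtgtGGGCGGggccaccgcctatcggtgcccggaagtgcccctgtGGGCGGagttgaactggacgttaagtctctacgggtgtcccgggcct
The Cpt1a window held 1 match to AGGTCA, read on the antisense strand and beginning 94 bases before the start, and those of Slc25a20 and Cpt2 held 0. Each of the windows held 3 matches to GGGCGG. Among the 32 of 38 genes with a window in the table, AGGTCA was found in 6, or 18.8%, against 16.3% of all 32851 windows of this length. The full PPAR element, AGGTCANAGGTCA, was found in 0 of the 32 and in 0.0396% of all windows. At so low a share over all windows, 0 of 32 says little. Only exact letters were counted, so elements that differ from them by some letters are not covered. GGGCGG was found in 25 of the 32, or 78.1%, against 35.7% of all windows, and TATAAA, the TATA box, in 0 of the 32 against 13.6%. Shares of the 32 count genes, while the others count windows of all genes, not matched for expression or kind of gene. A gap between them is therefore not shown to be a trait of this pathway. A match is a description of these letters, not a binding site.

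The rest of the shuttle showed no such separation. Cpt2 had log2 levels of 7.58 and 7.60 under ConCM, 7.62 and 7.48 under PlGFCM and 7.57 and 7.62 under IL6_ConCM. All 3 groups overlapped, and the difference of PlGFCM from ConCM was -0.03 with a 95% interval of -0.24 to 0.17, and 0.04 without PlGFCM replicate 2. Crat, which makes acetylcarnitine and so buffers acetyl-CoA, was at 6.76 and 6.50 under ConCM, 6.64 and 6.76 under PlGFCM and 6.77 and 6.85 under IL6_ConCM. The IL6_ConCM arrays lay just above both ConCM arrays, by 0.18 on average, which did not pass (limma adjusted p = 0.981). Crat has a second probe set, at 6.25 and 6.04 under ConCM, 5.64 and 6.10 under PlGFCM and 6.10 and 6.14 under IL6_ConCM. This second probe set differed from ConCM by -0.27 in PlGFCM, with PlGFCM replicate 1 the low array. The one used differed by 0.07 there, or by 0.004 without PlGFCM replicate 2. With IL-6 the second probe set differed by -0.02, so it did not share the 0.18 of the one used. Crot, the peroxisomal carnitine octanoyltransferase, was at 7.80 and 7.77 under ConCM, 7.97 and 7.73 under PlGFCM and 7.83 and 7.90 under IL6_ConCM, with a difference of 0.06 in PlGFCM (interval -0.16 to 0.28) and 0.18 without PlGFCM replicate 2. Slc22a5, the carnitine importer of the plasma membrane, differed from ConCM by -0.05 in PlGFCM (-0.16 without PlGFCM replicate 2) and 0.02 in IL6_ConCM.

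The question of whether the higher Cpt1a and Slc25a20 levels extended along the pathway was answered gene by gene over the 33 tested members. In PlGFCM against ConCM, 0 of 33 passed limma's test at an adjusted p under 0.05, where 0.433% of all genes passed. The smallest adjusted p was 0.277, for Eci2. An unadjusted p under 0.05 was reached by 7 of 33, of which 4 were higher and 3 lower, where 8.74% of all genes reached it. The groups did not overlap for 15 of 33, 8 higher and 7 lower in PlGFCM, where 38.2% of all genes did not overlap. The median log2 difference was -0.01 over the 33 and -0.01 over all genes, and 15 of the 33 had a positive difference. For all 33 the upper end of the 95% interval lay below the 1.02 of Cpt1a, and for 29 it lay below the 0.48 of Slc25a20. The exceptions were Eci2, Acad11, Hadhb and Plin2. Cpt1a and Slc25a20 were selected as high and their values carry no interval here, so this comparison is a description and not a test. The interval reached a mean of 1.5-fold or more above ConCM for 1 gene alone, Plin2, with its upper end at 0.61. Without PlGFCM replicate 2 the count was again 0 of 33.

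**Figure D2:**
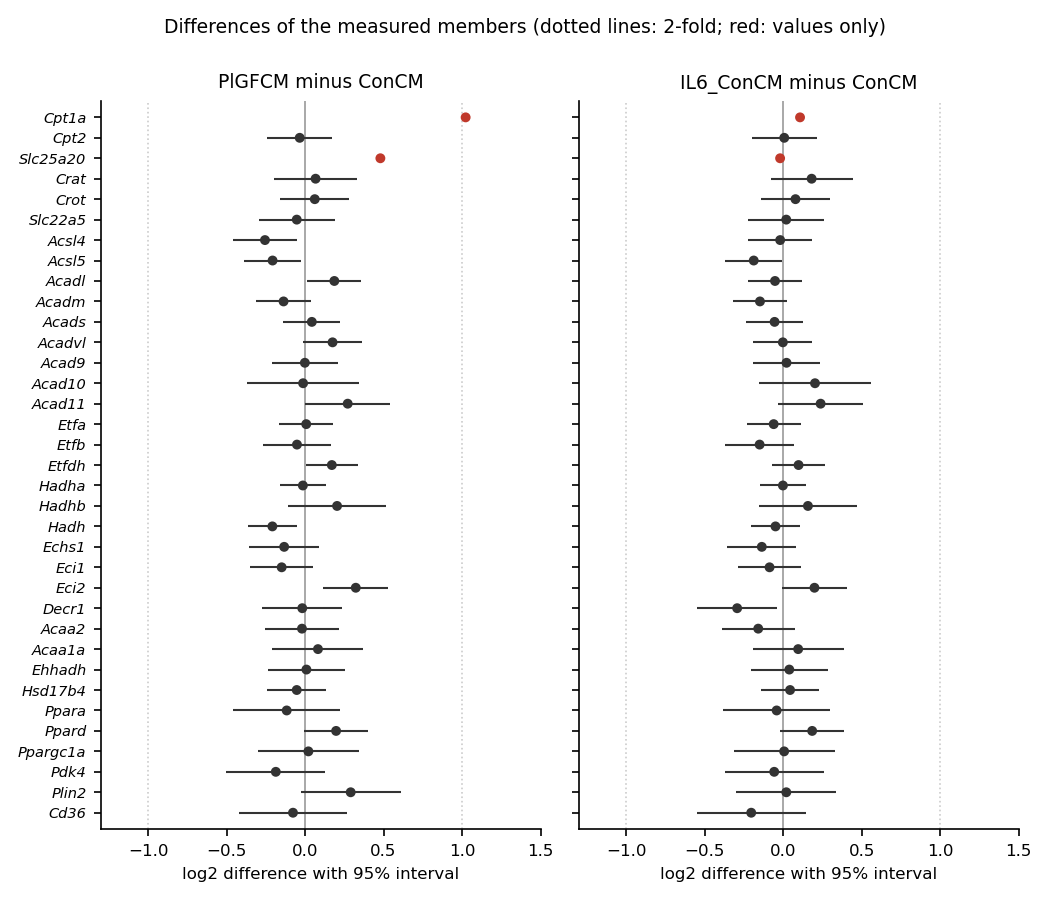
Log2 difference (x axis) of each of the 35 measured genes (y axis) in PlGFCM against ConCM (left) and IL6_ConCM against ConCM (right). Lines are 95% intervals of the limma fit for the 33 tested genes, red points are Cpt1a and Slc25a20, given as values, and dotted lines mark 2-fold. On the left Cpt1a at 1.02 and Slc25a20 at 0.48 lie to the right of the other genes, which run from -0.26 to 0.32, and on the right they lie among the others.

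In IL6_ConCM against ConCM, 0 of 33 passed as well, where 0.113% of all genes did. An unadjusted p under 0.05 was reached by 2, Acsl5 and Decr1, both lower, where 5.62% of all genes reached it. Groups did not overlap for 18 of 33, 7 higher and 11 lower, against 34.1% of all genes. The median over the 33 was -0.002 and the smallest adjusted p was 0.801, for Decr1. In PlGFCM against IL6_ConCM, 0 of 33 passed, where 0.0316% of all genes did. An unadjusted p under 0.05 was reached by 4 (2 higher, 2 lower) against 4.37% of all genes, and 13 had groups that did not overlap (8 higher, 5 lower) against 30.1%. The median there was 0.003. Both comparisons against ConCM use the same ConCM arrays, and both comparisons of PlGFCM the same PlGFCM arrays, so they are not independent of each other.

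**Figure D3:**
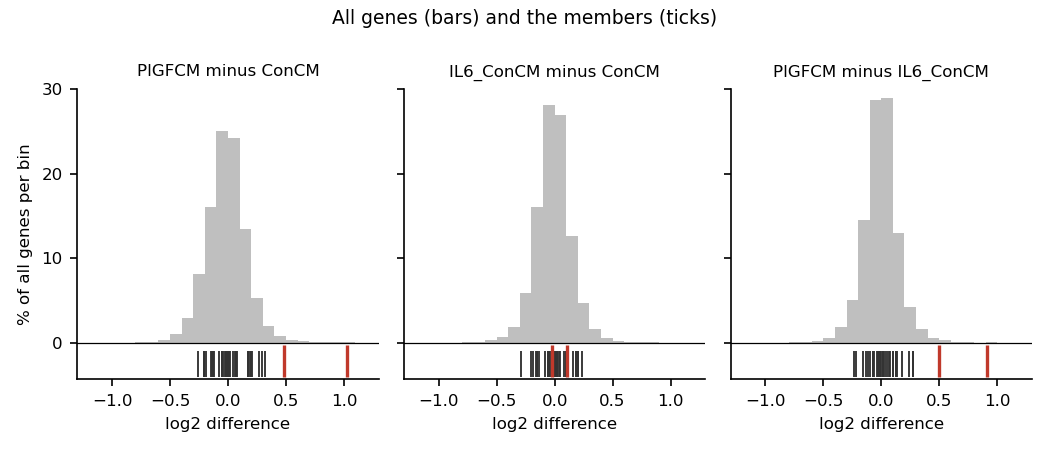
Log2 differences (x axis) in the 3 comparisons. Grey bars give the percentage of all 22180 genes per bin of 0.1 (y axis), dark ticks below the line the 33 tested genes and red ticks Cpt1a and Slc25a20. The dark ticks lie within the bulk of all genes in each panel, from -0.26 to 0.32 on the left, -0.29 to 0.24 in the middle and -0.24 to 0.28 on the right.

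Of the acyl-CoA synthetases, which supply the substrate of Cpt1a, Acsl4 and Acsl5 were measured and Acsl1 and Acsl3 were not. Both measured genes lay lower on the PlGFCM arrays without passing the test. Acsl4, which prefers arachidonic acid, was at a log2 level of 9.29 and 9.25 under ConCM, 9.15 and 8.88 under PlGFCM and 9.26 and 9.24 under IL6_ConCM. Both PlGFCM arrays were below the 4 others, and replicate 2 was the lower one. The difference from ConCM was -0.26 ± 0.09 (SE; adjusted p = 0.409) and -0.12 without that replicate. Acsl5, the synthetase of mitochondria and endoplasmic reticulum, was at 9.29 on both ConCM arrays, 9.11 and 9.06 under PlGFCM and 9.200 and 9.003 under IL6_ConCM. All 4 arrays of the other media thus lay below ConCM, by 0.21 and 0.19 on average. Neither difference passed (adjusted p = 0.494 and 0.883).

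The acyl-CoA dehydrogenases, each of which opens the cycle for a range of chain lengths, went different ways. Acadl, the long-chain enzyme, was at 8.89 and 8.98 under ConCM, 9.17 and 9.08 under PlGFCM and 8.88 and 8.89 under IL6_ConCM. Its PlGFCM arrays were the highest, 0.19 ± 0.08 (SE) above ConCM (adjusted p = 0.516) and 0.24 above IL6_ConCM (adjusted p = 0.893). Acadvl, the very long-chain enzyme of the inner membrane, was likewise highest on both PlGFCM arrays, at 8.65 and 8.50, 8.78 and 8.72, and 8.61 and 8.54 in ConCM, PlGFCM and IL6_ConCM (0.17 above ConCM; adjusted p = 0.607). Acadm, the medium-chain enzyme, lay the other way. It was at 9.04 and 9.11 under ConCM, 8.99 and 8.88 under PlGFCM and 8.90 and 8.95 under IL6_ConCM, so that both other media were below ConCM, by 0.14 and 0.15 (adjusted p = 0.678 and 0.943). Without PlGFCM replicate 2 the first was -0.08. Acad11, an enzyme of longer chains, was at 6.45 and 6.24 under ConCM, 6.73 and 6.50 under PlGFCM and 6.61 and 6.55 under IL6_ConCM. It did not pass in PlGFCM at 0.27 (adjusted p = 0.569) or with IL-6 at 0.24 (adjusted p = 0.933), and its replicates were 0.2 apart or more in ConCM and PlGFCM. Acads, the short-chain enzyme, Acad9, which also assembles complex I, and Acad10 differed by 0.04, -0.001 and -0.01 between PlGFCM and ConCM.

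**Figure D4:**
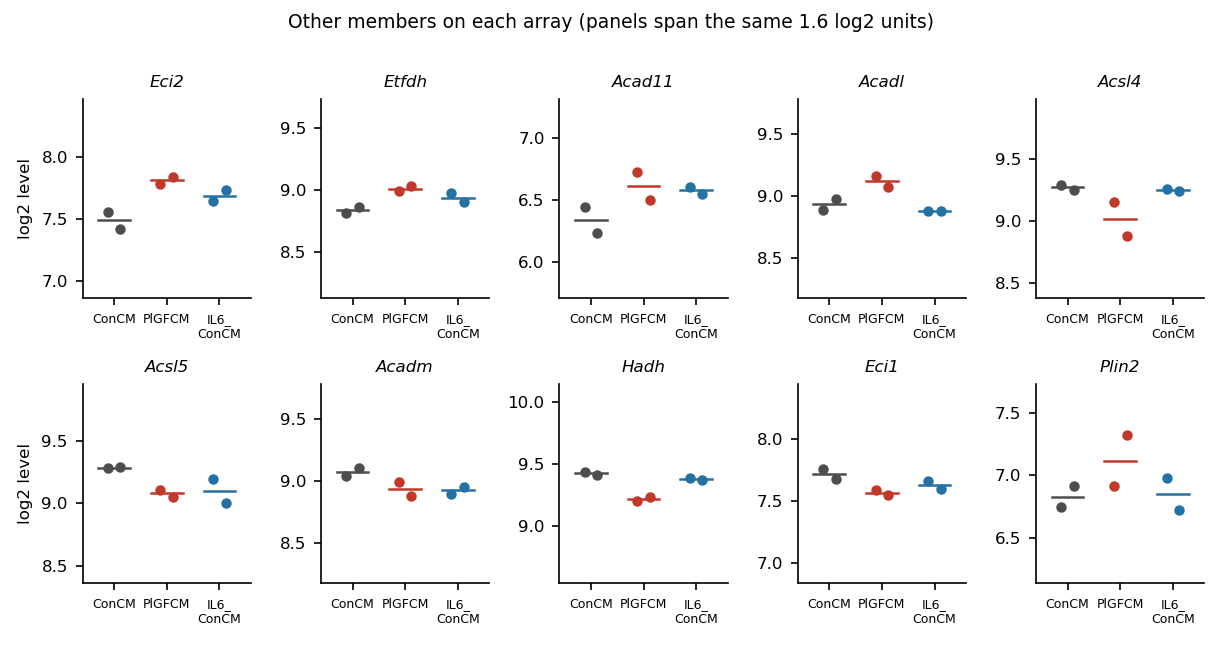
Log2 level (y axis) of 10 further genes of the pathway on each array, by group (x axis: ConCM, PlGFCM and IL6_ConCM, 2 arrays each). Points are arrays and bars are group means, and every panel spans the same 1.6 log2 units as in the plot of the carnitine shuttle genes. No panel shows a step like that of Cpt1a: the largest mean difference of PlGFCM from ConCM here is 0.32, for Eci2.

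Electrons from these dehydrogenases go to the flavoprotein of Etfa and Etfb and on to the ubiquinone pool through Etfdh. Etfdh was at a log2 level of 8.82 and 8.86 under ConCM, 8.99 and 9.03 under PlGFCM and 8.97 and 8.90 under IL6_ConCM. Both other media lay above ConCM, PlGFCM by 0.17 ± 0.08 (SE; adjusted p = 0.559) and IL6_ConCM by 0.10 (adjusted p = 0.994). Etfa, at 8.58 and 8.63 in ConCM and 8.63 and 8.59 in PlGFCM, overlapped between these media with a difference of 0.01 (interval -0.16 to 0.18), or 0.03 without PlGFCM replicate 2. Etfb was at 7.87 and 7.69 under ConCM, 7.72 and 7.73 under PlGFCM and 7.69 and 7.56 under IL6_ConCM, with differences from ConCM of -0.05 and -0.15.

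Among the enzymes that complete each round were genes on either side of 0, and none passed the test. In PlGFCM against ConCM, 2 of the 8 had a positive difference and 6 a negative one. Eci2, an isomerase that prepares unsaturated chains, was at 7.56 and 7.43 under ConCM, 7.79 and 7.84 under PlGFCM and 7.64 and 7.73 under IL6_ConCM. PlGFCM was 0.32 ± 0.09 (SE) above ConCM and IL6_ConCM 0.20 above it, and neither passed (adjusted p = 0.277 and 0.905). Eci1, the isomerase of the same reaction, lay the other way, at 7.76 and 7.68 under ConCM, 7.59 and 7.55 under PlGFCM and 7.67 and 7.60 under IL6_ConCM, with -0.15 in PlGFCM (adjusted p = 0.704). Hadh, the hydroxyacyl-CoA dehydrogenase of shorter chains, was at 9.44 and 9.41 under ConCM, 9.20 and 9.23 under PlGFCM and 9.38 and 9.37 under IL6_ConCM. Its PlGFCM arrays were the lowest, at -0.21 ± 0.07 (SE) from ConCM, which did not pass (adjusted p = 0.365). Echs1, the hydratase of shorter chains, was at 7.47 and 7.39 under ConCM, 7.33 and 7.27 under PlGFCM and 7.38 and 7.21 under IL6_ConCM, 0.13 and 0.14 below ConCM on average. Decr1, a reductase for polyunsaturated chains, was low with IL-6 instead, at 6.42 and 6.59 against 6.74 and 6.86 in ConCM and 6.70 and 6.86 in PlGFCM. Its difference with IL-6 was -0.29 ± 0.12 (SE; adjusted p = 0.801), and that in PlGFCM was -0.02, or -0.10 without PlGFCM replicate 2. Acaa2, the mitochondrial thiolase, differed by -0.02 in PlGFCM and -0.16 with IL-6.

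Hadha and Hadhb encode both subunits of the trifunctional protein, which takes long chains through the remaining steps. In the RefSeq table their starts lie head to head, on opposite strands, and their promoter windows share 228 bases. Hadha was at a log2 level of 9.96 on both ConCM arrays, 9.99 and 9.90 under PlGFCM and 9.98 and 9.93 under IL6_ConCM. It overlapped in all comparisons, with an interval of -0.16 to 0.13 around a difference of -0.01 in PlGFCM, which was 0.03 without PlGFCM replicate 2. Hadhb was at 5.44 and 5.42 under ConCM, 5.45 and 5.82 under PlGFCM and 5.62 and 5.56 under IL6_ConCM. These levels lay around the median of all probe sets (5.48). PlGFCM replicate 1 lay beside the ConCM arrays and replicate 2 above them. The difference of 0.20 (adjusted p = 0.749) was 0.02 without replicate 2.

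None of the 3 measured peroxisomal enzymes passed the test in any comparison. Acaa1a, the peroxisomal thiolase, was at 6.18 and 6.37 under ConCM, 6.21 and 6.51 under PlGFCM and 6.42 and 6.32 under IL6_ConCM, with all groups overlapping and a PlGFCM difference of 0.08, or -0.07 without PlGFCM replicate 2. Hsd17b4, the D-bifunctional protein, was at 8.67 and 8.75, 8.58 and 8.73, and 8.78 and 8.72 in the same order, with a PlGFCM difference of -0.05, or -0.13 without that array. Ehhadh, the L-bifunctional protein and a classical PPAR alpha target, differed from ConCM by 0.01 in PlGFCM (interval -0.24 to 0.25) and 0.04 with IL-6.

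Among the regulators, Ppard, the PPAR form of broad expression, was at 8.37 and 8.36 under ConCM, 8.66 and 8.46 under PlGFCM and 8.60 and 8.49 under IL6_ConCM. All 4 arrays of the other media lay above ConCM, by 0.20 in PlGFCM and 0.18 with IL-6 on average, and neither passed (adjusted p = 0.588 and 0.920). The PlGFCM difference was 0.09 without PlGFCM replicate 1 and 0.30 without replicate 2. Ppara was at 4.99 and 4.96 under ConCM, 5.06 and 4.66 under PlGFCM and 4.99 and 4.88 under IL6_ConCM, and overlapped throughout, with a PlGFCM difference of -0.12 that was 0.08 without replicate 2. Ppargc1a, a coactivator of mitochondrial genes, was between 3.62 and 3.75 on all arrays, with a PlGFCM difference of 0.02, or 0.07 without replicate 2. Pdk4, which inhibits pyruvate dehydrogenase and is a sensitive PPAR target in many tissues, was at 4.29 and 4.40 under ConCM, 4.11 and 4.21 under PlGFCM and 4.20 and 4.37 under IL6_ConCM, with -0.19 in PlGFCM (adjusted p = 0.774). The last 3, with Acad10 and Cd36, had a mean level below the median of all probe sets (5.48).

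Of the lipid handling genes, Plin2, which coats lipid droplets, was at 6.75 and 6.91 under ConCM, 6.92 and 7.32 under PlGFCM and 6.98 and 6.72 under IL6_ConCM. PlGFCM replicate 2 was the highest array and replicate 1 lay beside the upper ConCM array. The mean difference of 0.29 (adjusted p = 0.614) was 0.09 without replicate 2. Cd36, a fatty acid importer, was between 3.20 and 3.58 on all arrays, with a difference of -0.08 in PlGFCM (-0.03 without replicate 2) and -0.20 with IL-6 (adjusted p = 0.939 and 0.994).

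Further genes of the pathway, from lists drawn up by function with earlier results of these data known, did not pass either. Of all genes, 0.433% passed in PlGFCM against ConCM, 0.113% in IL6_ConCM against ConCM and 0.0316% in PlGFCM against IL6_ConCM. An unadjusted p under 0.05 was reached by 8.74% of all genes in PlGFCM against ConCM. Of 12 measured genes of peroxisomal oxidation and import, 0 passed in any comparison, with a median of -0.003 in PlGFCM against ConCM and an unadjusted p under 0.05 for 3 (2 higher, 1 lower). The smallest p was that of Acox3, an acyl-CoA oxidase, at 7.218 and 7.196 under ConCM, 7.55 and 7.42 under PlGFCM and 7.37 and 7.63 under IL6_ConCM (0.28 and 0.29 above ConCM; adjusted p = 0.492 and 0.758). Of 8 genes of carnitine synthesis and transport 0 passed, and in PlGFCM against ConCM 2 had an unadjusted p under 0.05, both lower. In IL6_ConCM against ConCM 4 of the 8 had one (3 lower, 1 higher), where 5.62% of all genes did, and the median was -0.20, against -0.01 over all genes. Shmt1, a folate enzyme that can cleave a carnitine precursor, was at 8.41 and 8.19 under ConCM, 7.82 and 7.81 under PlGFCM and 8.08 and 7.76 under IL6_ConCM. It lay 0.48 and 0.38 below ConCM (adjusted p = 0.165 and 0.591). Of 16 genes of fatty acid uptake and binding 0 passed, with a median of -0.01 in PlGFCM against ConCM and 0 with an unadjusted p under 0.05. Slc27a2, a fatty acid transport protein, had the smallest p there, with a difference of 0.27 (adjusted p = 0.619). Of 11 genes that set malonyl-CoA and AMPK activity, which govern Cpt1a activity, 0 passed and 1 had an unadjusted p under 0.05, lower in PlGFCM than in ConCM. Acaca, which makes malonyl-CoA, was at 8.43 and 8.35 under ConCM, 8.19 and 8.01 under PlGFCM and 8.31 and 8.25 under IL6_ConCM, with -0.29 ± 0.09 (SE) in PlGFCM (adjusted p = 0.325). Of 10 thioesterases and other acyl-CoA dehydrogenases 0 passed, with 0 at an unadjusted p under 0.05 in PlGFCM against ConCM, and Acot2, a mitochondrial thioesterase, had differences of -0.12 in PlGFCM and -0.23 with IL-6 (adjusted p = 0.709 and 0.642). Of 22 PPAR partners and other target genes 0 passed, with 11 higher and 11 lower in PlGFCM than in ConCM a median of 0.003 and 3 with an unadjusted p under 0.05 (1 higher, 2 lower). Klf15, a transcription factor of fasting metabolism, had the smallest p at -0.48 (adjusted p = 0.309).

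Markers of other cells were set beside the PlGFCM difference of Cpt1a and Slc25a20. Of all genes, 0.433% were called in PlGFCM against ConCM and 0.113% in IL6_ConCM against ConCM. The mean log2 level of 10 myeloid markers was 5.46 to 5.53 on the ConCM arrays, 5.53 to 5.54 on the PlGFCM arrays and 5.43 to 5.46 on the IL6_ConCM arrays. In PlGFCM, 3 of the 10 were higher than in ConCM, Lyz2, Cd14 and Adgre1, none of them called. Cd14 was at 6.25 and 6.26 under ConCM and 6.95 and 6.91 under PlGFCM. Adgre1 was at 5.35 and 5.34 under ConCM and 5.79 and 5.68 under PlGFCM. Among the rest, Clec7a was called lower. The mean level of 7 B cell markers was 6.42 to 6.49, 6.43 on both and 6.397 to 6.45 in the same order, with 5 of 7 higher in PlGFCM and 2, Ms4a1 and Fcer2a, called lower. For 5 dendritic cell markers it was 5.71 to 5.83, 5.71 to 5.77 and 5.59 to 5.77, for 8 NK and CD8 T cell markers 5.71 to 5.74, 5.71 to 5.88 and 5.85 to 5.94, with Gzma called in PlGFCM and with IL-6 against ConCM, and for 4 erythroid and platelet markers 4.79 to 4.89, 4.73 to 4.93 and 4.80 to 4.94. Their part in the level of any gene described here was not tested.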

How the data were processed

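Sense cDNA made from total RNA was labelled with the GeneChip Whole Transcript PLUS kit, per the labels' protocols. For each probe set the deposited value is a log2 level. The submitters' processing notes name Transcriptome Analysis Console, with no version. Background correction, normalization and genome build were not given in the sources. That the scale is log2 was inferred from the range of the values.

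Of 41345 probe sets, 23521 have 1 gene symbol in the platform annotation, 1814 several and 16010 none, and 22180 genes resulted, with no filter on low levels. The values were fitted with limma 3.58.1 in R 4.3.3 (lmFit and eBayes with an intensity trend, all 6 arrays, 3 residual degrees of freedom). Adjusted p-values are Benjamini-Hochberg over all 22180 genes, with calls under 0.05, and intervals are those of the fit and cover 1 comparison at a time. With 2 arrays a group, the smallest two-sided p of an exact permutation test is 1 in 3, and precision is limited by how few arrays there are. The fit was tested on simulated independent arrays with spreads drawn from the fitted model. That does not cover technical replicates or an array that stands apart.

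The genes, the 10 pathway lists and the marker lists were chosen with earlier results of these data known. Values on each array are given for Cpt1a, Slc25a20, any called gene, the 2 genes of smallest p in each of 8 roles, genes whose groups did not overlap in both comparisons with ConCM, and all regulators and lipid handling genes; other genes shown by array were chosen after their values were seen. Of the pathway lists, called genes or that of smallest p are named. Alternatives were quantile normalization, array medians subtracted, 2 filters on low levels, the mean of a gene's probe sets, eBayes with no trend, a robust prior, the compared arrays alone, a replicate block, an unadjusted p with 2-fold change, and each array left out.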

Additional observations from a re-analysis of the deposited data

How the results depend on the processing

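The count of tested genes that passed was 0 in all 3 comparisons under each of the 16 alternatives run, where the filters on low levels left 28 and 30 of the 33. That says little where hardly any gene passed at all. In PlGFCM against IL6_ConCM, 0 to 10 of all genes passed over the alternatives, with 0 under no intensity trend, without PlGFCM replicate 2 and without IL6_ConCM replicate 2. In IL6_ConCM against ConCM it was 1 to 53, with 1 under no intensity trend and 2 without ConCM replicate 2. With all arrays, an unadjusted p under 0.05 was reached by 7, 2 and 4 of the 33 in the order PlGFCM against ConCM, IL6_ConCM against ConCM and PlGFCM against IL6_ConCM. The Cpt1a difference between PlGFCM and ConCM ran from 0.99 to 1.05 and that of Slc25a20 from 0.44 to 0.52 over the alternatives. For Slc25a20 the ends of that range came from leaving out PlGFCM replicate 1 (0.44) or replicate 2 (0.52). The median over the measured genes ran from -0.018 to 0.022 in PlGFCM against ConCM, -0.026 to 0.002 in IL6_ConCM against ConCM and -0.020 to 0.065 in PlGFCM against IL6_ConCM. Its sign in the first turned with array medians subtracted, either filter, or without ConCM replicate 2 or PlGFCM replicate 2, so it has no settled direction. Quantile normalization turned the sign of 2, 5 and 1 tested genes in the 3 comparisons, each near 0. The count of calls over all genes in PlGFCM against ConCM was 96, and it was 6 without an intensity trend, 174 with genes at or above the median of all probe sets and 12 to 62 with a ConCM or PlGFCM array left out. The deviations of arrays with the same replicate number correlated at -0.04, 0.11 and 0.03 between groups. With 1 replicate difference per group, this cannot settle whether the numbers pair the samples. With the replicate block 0 tested genes passed, and 62 of all genes did in PlGFCM against ConCM. With 2 arrays a group the 95% interval of a tested gene reached a median of 0.22 log2 units to either side, which limits what could be seen of smaller differences.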

Other observations

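Lists next to fatty acid oxidation, also drawn up with earlier results of these data known, showed the values below. They lie outside the comparisons above, and 0 of their genes passed limma's test over all genes in any comparison. Of 17 measured genes of the TCA cycle, 16 had a negative difference in PlGFCM against ConCM, with a median of -0.10, against -0.01 over all genes, and 6 had an unadjusted p under 0.05, all lower. Of all genes 53.6% had a negative difference there, and 4.54% had an unadjusted p under 0.05 and were lower. Sdhd, a subunit of succinate dehydrogenase, was at a log2 level of 9.43 and 9.33 under ConCM, 9.04 and 9.02 under PlGFCM and 9.18 and 9.22 under IL6_ConCM. The arrays of all 3 groups were separate, and the difference of -0.35 ± 0.07 (SE) had an adjusted p of 0.0850. Of 12 genes of fatty acid synthesis, 9 had a negative difference in PlGFCM against ConCM, where 53.6% of all genes did. Of the 9, 6 had an unadjusted p under 0.05, where 4.54% of all genes had one and were lower. The median was -0.14, against -0.01 over all genes. Against IL6_ConCM all 12 were negative in PlGFCM, where 50.9% of all genes were, and IL6_ConCM against ConCM had a median of -0.007. Fads2, a desaturase, was at 6.11 and 6.79 under ConCM, 5.80 and 5.74 under PlGFCM and 6.34 and 6.56 under IL6_ConCM. Its ConCM arrays were 0.68 apart, as much as the mean difference of -0.68 (adjusted p = 0.232). Of the 4 measured genes of ketone body use, Acat1 had the smallest p, at -0.21 in PlGFCM against ConCM (adjusted p = 0.488).

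Of 15 genes of lipolysis and lipid droplets, 8 had a positive difference in PlGFCM against ConCM and the median was 0.01. Dgat1, which completes triglyceride synthesis, was at a log2 level of 7.92 and 7.68 under ConCM, 8.45 and 8.19 under PlGFCM and 8.12 and 8.16 under IL6_ConCM. All 4 arrays of the other media lay above ConCM, by 0.52 ± 0.11 (SE) in PlGFCM and 0.34 with IL-6 on average (adjusted p = 0.0901 and 0.644). Hilpda, an inhibitor of lipolysis, was at 8.54 and 8.65 under ConCM, 8.98 and 8.87 under PlGFCM and 8.42 and 8.59 under IL6_ConCM. Its PlGFCM arrays lay above the 4 others, with 0.33 against ConCM (adjusted p = 0.231) and 0.42 against IL6_ConCM (adjusted p = 0.275).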
